A study of Homo sapiens with 6 samples.

Results

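The genes described here are 10 components of the G1 cyclin-kinase switch other than cyclin D1: the D-type cyclins CCND2 and CCND3, the kinases CDK4, CDK6 and CDK2, the E-type cyclins CCNE1 and CCNE2, the inhibitors CDKN1B and CDKN2A, and the pocket protein RB1. They were taken by gene symbol from a deposited table of 58735 genes. Of the 10 genes, 9 passed the filter on low values (at least 1 FPKM in at least 2 libraries) that left 14352 genes for testing, and CCND2 did not. The cells were KYSE30, an established line from a human oesophageal squamous cell carcinoma, so every value below comes from 1 cell line. They received the control siRNA si-NC or 1 of the RAB23 siRNAs si-RAB23-1 and si-RAB23-9, each at 100 nM with the lipid reagent HiPerFect, and 2 libraries were made per siRNA (6 in all). The series asked which transcripts change when RAB23, a small GTPase of the Rab family, is lowered.

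In G1 the D-type cyclins pair with CDK4 and CDK6, and the E-type cyclins pair with CDK2. Both kinase complexes phosphorylate RB1, which otherwise binds E2F transcription factors and keeps genes of DNA replication off. The INK4 inhibitors, among them the p16 product of CDKN2A, bind CDK4 and CDK6, whereas the CIP/KIP inhibitors, among them p27 from CDKN1B, bind cyclin-kinase complexes and are best known as inhibitors of CDK2. Squamous carcinomas of the oesophagus often carry lesions of this switch, such as gain of CCND1 and loss of CDKN2A. Much of the switch is set by protein stability and phosphorylation, which RNA sequencing does not read.

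Libraries held between 17211025 and 24178125 reads as recovered from the FPKM, and between 13576 and 13700 genes had at least 1 FPKM. RAB23 itself stood at 3.27 and 3.33 FPKM in si-NC, at 1.03 and 1.10 FPKM in si-RAB23-1, and at 1.18 and 1.27 FPKM in si-RAB23-9. That is 0.322 and 0.372 times the si-NC mean, in the direction of the labels. Of 10 squamous markers, 9 had at least 1 FPKM, and the basal keratin KRT5 did not. The summed FPKM of the squamous list was 398.5 to 405.4 in si-NC, 454.1 to 480.7 in si-RAB23-1 and 403.6 to 404.2 in si-RAB23-9. Of leukocyte and columnar epithelial markers 0 of 5 each passed the filter, and of fibroblast and endothelial markers 1 of 6 and 1 of 4 did. The summed endothelial FPKM was low and moved as well, at 3.77 to 3.79 in si-NC, 1.62 to 2.09 in si-RAB23-1 and 2.73 to 3.17 in si-RAB23-9. The fibroblast sum lay between 3.44 and 3.92 in all libraries. The part of these shifts in the results below was not tested. The design text calls the libraries of a group biological replicates, but no label names separate cultures. The p-values therefore measure only the spread between these libraries, part of which may be technical. Because these are bulk samples, a change in the share of cells in a cell-cycle phase and a change in RNA per cell cannot be told apart.

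Against si-NC, the members that passed the test were CDK6, higher with si-RAB23-1; CCNE1, higher with si-RAB23-9; CDKN1B, lower with both; and CDK4 and CCND3, lower with si-RAB23-1. With si-RAB23-1, 1 of the 9 tested members was higher and 3 were lower by limma at an adjusted p under 0.05, where 8.13% of all genes tested were called higher and 7.26% lower. With si-RAB23-9, 1 was higher and 1 lower, against 7.56% and 5.69% of all genes. Between the siRNAs, 3 members were higher and 1 was lower with si-RAB23-9, against 11.1% and 9.89% of all genes. The median difference in log2(FPKM + 1) over the 9 members was -0.19, 0.13 and 0.10 in these comparisons, and over all genes tested it was 0.0083, 0.0060 and 0.00023. The 2 comparisons with si-NC share their control libraries. Whether libraries of the groups overlap is given below as a description only. With 2 libraries each, groups can readily lie apart without any effect, and the share of all genes tested that do so was not counted. Differences below are in log2(FPKM + 1), a scale on which changes of weakly expressed genes look smaller than they are.

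**Figure D1:**
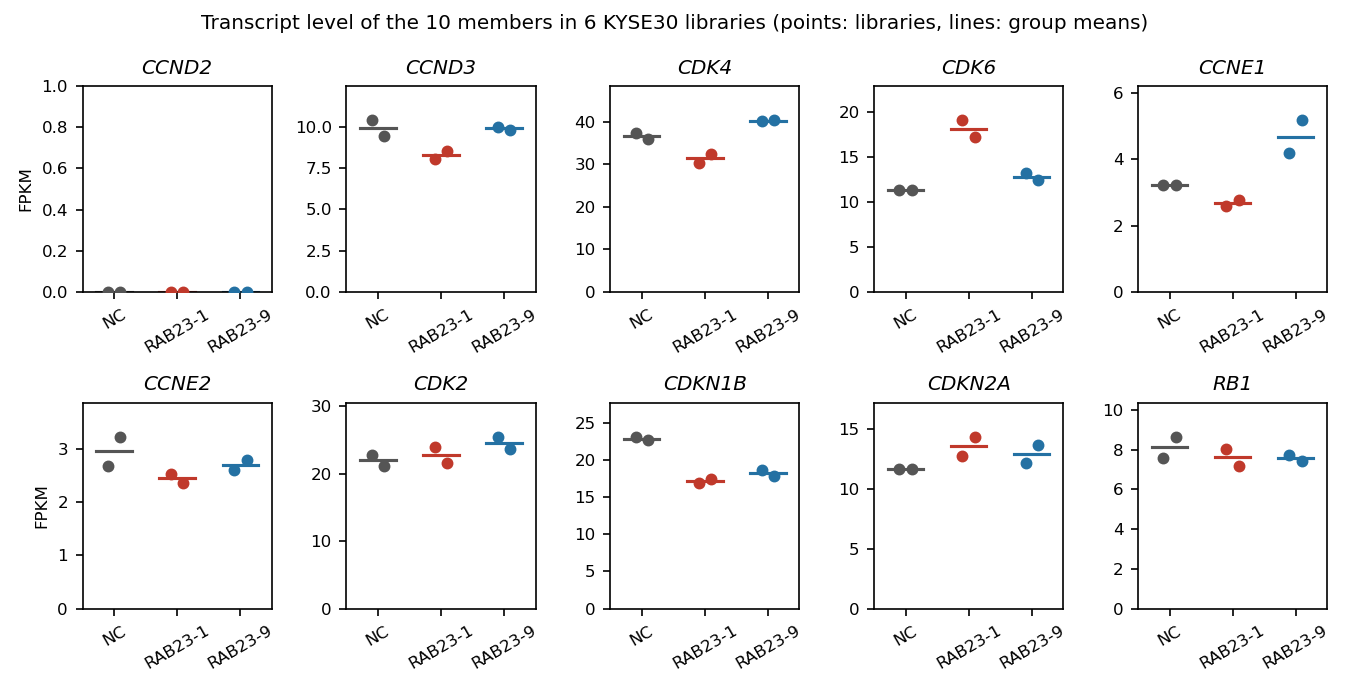
FPKM of each of the 10 members (one panel per gene, own axis from 0) by siRNA, with si-NC at the left; points are single libraries and lines are group means. CDK6 stands highest in the si-RAB23-1 libraries (17.3 and 19.1), CDKN1B is highest in si-NC, and CCND2 is at 0 throughout.

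CDK4 was the most abundant member in all 3 groups, and the E-type cyclins were the least abundant of those above 0. FPKM is per length of the gene model, so levels of different genes can be set side by side as far as all of a gene's exons could take reads. In si-NC the order of mean FPKM was CDK4 (36.7), CDKN1B (22.9), CDK2 (21.9), CDKN2A (11.7), CDK6 (11.4), CCND3 (9.92), RB1 (8.11), CCNE1 (3.21), CCNE2 (2.96) and CCND2 (0). Neighbours in this order did not overlap, except CDKN1B with CDK2 and CCNE1 with CCNE2. These 2 steps turned when recovered reads were divided only by exonic bases free of other genes' exons: CDK2 (26.1 reads per free kilobase, scaled to library size as FPKM is) then lay above CDKN1B (22.7), and CCNE2 (4.66) above CCNE1 (3.18), without overlap. With si-RAB23-1, CDK6 stood in the third place (18.2 FPKM) and its libraries overlapped those of CDKN1B (17.2 FPKM). With si-RAB23-9, CDK2 (24.6 FPKM) lay above CDKN1B (18.3 FPKM) without overlap, and CDKN2A (12.9 FPKM) overlapped CDK6 (12.8 FPKM).

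Of the D-type cyclins, CCND2 was not detected. CCND2 (ENSG00000118971, chromosome 12, 4273772 to 4305350, plus strand, GRCh38), a D-type cyclin prominent in lymphoid and germ cells, was listed at 0 in all 6 libraries, with 0 recovered reads. A count of 0 allows up to 3 reads, which is 0.0176 FPKM in the deepest library and 0.0253 FPKM in the shallowest, for counting error only. Of its 7157 exonic bases, 6168 (86.2%) carry no exon of another gene and could take reads that no other gene shares. The overlapping AC008012.1, on its strand, and the antisense CCND2-AS1 were also at 0. Against this limit, set in each library, CCND3 was at least 318.3-fold to at least 592.1-fold higher, and CCND1 at least 2334-fold to at least 6482-fold higher.

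CCND3 (ENSG00000112576, chromosome 6, 41934933 to 42050357, minus strand), a D-type cyclin found in most tissues, stood at 10.4 and 9.45 FPKM in si-NC, at 8.05 and 8.53 in si-RAB23-1, and at 10.0 and 9.82 in si-RAB23-9. Both si-RAB23-1 libraries lay below the other 4, and the si-RAB23-9 libraries lay within the range of si-NC. CCND3 was lower with si-RAB23-1, with a log2 difference of -0.23 (SE 0.058, 95% confidence interval -0.38 to -0.090, limma adjusted p = 0.0492). For si-RAB23-9 against si-NC the difference was 6.7e-05 with an interval of -0.14 to 0.14 (limma adjusted p = 1.0). The siRNAs differed from each other by 0.23 (interval 0.090 to 0.38, limma adjusted p = 0.0406). Of 10 other settings, 5 kept the call with si-RAB23-1 and 6 that between the siRNAs (limma adjusted p up to 0.124 and 0.107). These calls lay close to the threshold: each was lost with any 1 of the 6 libraries left out (adjusted p up to 0.2 and 0.16 by limma), and both were lost with the replicate number as a block (0.08 and 0.068).

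CCND1, named here only as the D-type cyclin that CCND2 and CCND3 stand beside, was at 113.8 and 113.3 FPKM in si-NC, 59.0 and 58.8 in si-RAB23-1, and 75.9 and 77.0 in si-RAB23-9. The summed D-type FPKM went from 123.5 ± 0.991 (SD, n = 2) in si-NC to 67.2 ± 0.154 in si-RAB23-1 and 86.4 ± 0.637 in si-RAB23-9. CCND3 made up 8.03% ± 0.476 of that sum in si-NC, 12.3% ± 0.472 in si-RAB23-1 and 11.5% ± 0.239 in si-RAB23-9 (SD, n = 2). The groups with a RAB23 siRNA thus lay above si-NC in every library, at 11.3% to 12.7% against 7.70% and 8.37%. The shares are given as a description and were not tested.

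**Figure D2:**
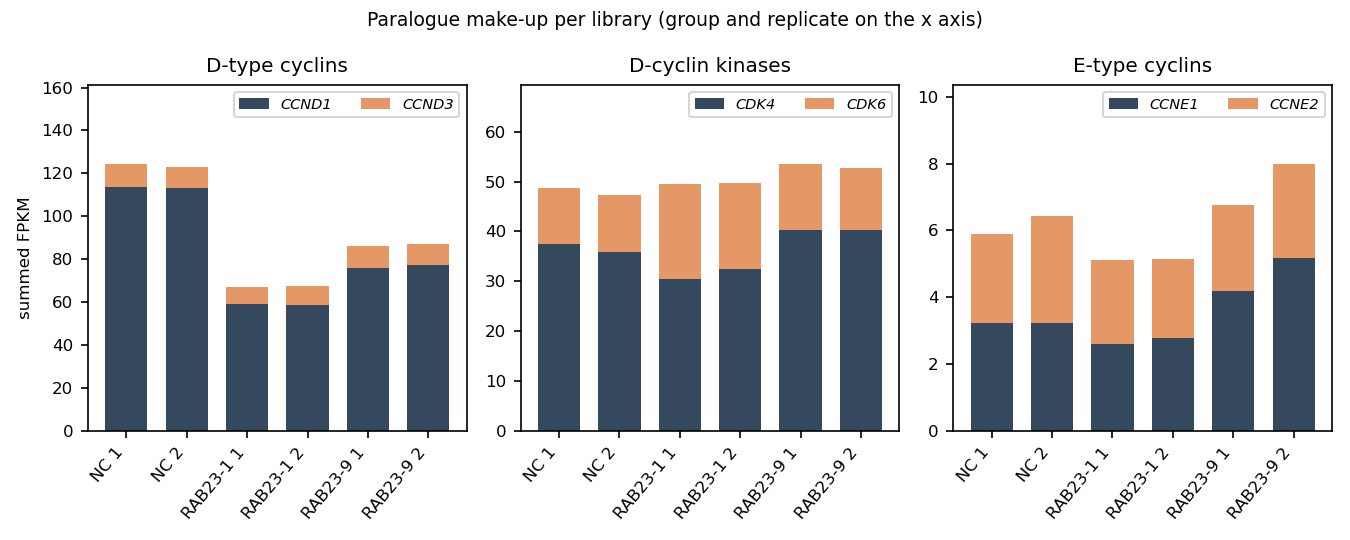
Summed FPKM per library of the D-type cyclins (CCND1, CCND3), the D-cyclin kinases (CDK4, CDK6) and the E-type cyclins (CCNE1, CCNE2), stacked by gene, axes from 0. The D-type sum and its CCND1 part are highest in si-NC, and the CCNE1 part is largest in si-RAB23-9. The kinase sum lies between 47.3 and 53.5 FPKM, and the CDK6 part is largest in si-RAB23-1.

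Of the D-cyclin kinases, CDK6 rose and CDK4 fell with si-RAB23-1. CDK6 (ENSG00000105810, chromosome 7, 92604921 to 92836594, minus strand) had 11.3 and 11.4 FPKM in si-NC, 19.1 and 17.3 in si-RAB23-1, and 13.2 and 12.4 in si-RAB23-9, from 2704 to 4705 reads per library. The 3 groups did not overlap. Against the si-NC mean this was 1.60-fold with si-RAB23-1, a log2 difference of 0.63 (SE 0.059, interval 0.49 to 0.78, limma adjusted p = 0.00414). That call held under all 10 other settings and with each of the 6 libraries left out (limma adjusted p up to 0.043). With si-RAB23-9 CDK6 was 1.13-fold of si-NC, a difference of 0.16 that did not pass the test (interval 0.015 to 0.31, limma adjusted p = 0.137). It did pass in the read-based voom fits of limma (adjusted p = 0.0125 and 0.017). Set directly against si-RAB23-1, CDK6 was lower with si-RAB23-9, with a difference of -0.47 (interval -0.62 to -0.32, limma adjusted p = 0.00681), a call lost without the second si-RAB23-9 library (0.0514).

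CDK4 (ENSG00000135446, chromosome 12, 57747727 to 57756013, minus strand) had 37.4 and 35.9 FPKM in si-NC, 30.4 and 32.5 in si-RAB23-1, and 40.3 and 40.4 in si-RAB23-9. Again the groups did not overlap, with si-NC between the RAB23 siRNAs. CDK4 was lower with si-RAB23-1, with a difference of -0.21 (SE 0.044, interval -0.32 to -0.11, limma adjusted p = 0.0295), a call that held with 1 library left out only when that was the second si-RAB23-1 library (the others gave up to 0.15) and was lost in the block (0.058). Of 10 other settings, 6 kept the call with si-RAB23-1 (limma adjusted p up to 0.074). With si-RAB23-9 the difference of 0.13 did not pass (interval 0.025 to 0.24, limma adjusted p = 0.107). Between the siRNAs CDK4 was higher with si-RAB23-9 by 0.35 (interval 0.24 to 0.46, limma adjusted p = 0.00678). The call between the siRNAs held under 10 of 10 settings and was lost without the second si-RAB23-9 library (0.0543).

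CDK4 and CDK6 moved in opposite directions with si-RAB23-1, and their sum was 48.0 ± 0.992 FPKM in si-NC, 49.7 ± 0.146 in si-RAB23-1 and 53.1 ± 0.482 in si-RAB23-9 (SD, n = 2). CDK6 made up 23.2% and 24.0% of this sum in si-NC, 38.6% and 34.7% in si-RAB23-1, and 24.7% and 23.5% in si-RAB23-9. The si-RAB23-1 libraries stood apart from the other 4, whose ranges overlapped. The level of these shares depends on how length is counted. In the gene models CDK4 has 3168 exonic bases, of which 1369 lie under exons of opposite-strand genes such as TSPAN31. CDK6 has 12260, of which 81 do. Of 17 protein-coding genes that opposite-strand exons cover in full, 17 were listed at 0, against 13.5% of the 19639 protein-coding genes with at least 1 free base. In a wider class of 30 that includes these 17, with bases free on their own strand but none free of both strands, 28 were at 0. Per base free of other genes' exons, CDK6 made up 15.0% in si-NC, 24.8% in si-RAB23-1 and 15.4% in si-RAB23-9. The order of the groups in this share was the same on both scales, but that of the sum was not. Per free kilobase, scaled to library size, mean CDK4 was 63.8 reads in si-NC, 53.7 in si-RAB23-1 and 70.0 in si-RAB23-9. Mean CDK6 was 11.3, 17.7 and 12.7 reads. On this scale CDK4 fell by more than CDK6 rose with si-RAB23-1, so their sum lay below si-NC. TSPAN31 itself was not called in any comparison.

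Earlier results on these libraries had pointed to a 7-base word in 3′ UTRs for each siRNA whose carriers were lower more often: GACATAT for si-RAB23-1 and AAGTTAA for si-RAB23-9. The sources used here do not give the siRNA sequences, so whether these words match their seeds was not tested. Of 10940 genes scanned, 928 hold GACATAT (8.48%) and 2025 hold AAGTTAA (18.5%). With si-RAB23-1, 25.7% of the GACATAT carriers were lower and 7.11% of the genes without it. With si-RAB23-9, 17.3% of the AAGTTAA carriers were lower and 4.22% of the genes without it. Because the words came from these same libraries, these shares restate how they were found and are not independent support. Carriers and other genes were not matched for length of the 3′ UTR. None of the 10 members holds GACATAT, a word that only 8.48% of the genes scanned hold. This includes the members lower with si-RAB23-1 (CDKN1B, CDK4 and CCND3), and the cause of their fall was not tested. CDK6, with the longest 3′ UTR of the set (10219 bases), holds AAGTTAA in 3 copies, and CCNE2 holds it in 1. The CCNE2 window is not shown. The 3 CDK6 windows are given here (GRCh38, minus strand, 5′ to 3′, word in capitals, all in 1 transcript, at bases 587, 2868 and 5839 of its 3′ UTR):
chr7:92614537-92614563: tcaaattagaAAGTTAAccccatgtcc
chr7:92612256-92612282: agctcatagcAAGTTAAaatattgtga
chr7:92609285-92609311: ccaaatgattAAGTTAAttttagaggt
A match of letters is a description and not a shown site of binding. CDK6 was lower with si-RAB23-9 only relative to si-RAB23-1, where it was high, and its libraries lay above si-NC. CCNE2 stood at 0.913 times the si-NC mean with si-RAB23-9, with overlapping libraries, and was not called in any comparison.

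Of the E-type cyclins, CCNE1 rose with si-RAB23-9 and CCNE2 did not pass the test. CCNE1 (ENSG00000105173, chromosome 19, 29811898 to 29824308, plus strand), the cyclin E whose gene is amplified in several carcinomas, had 3.22 and 3.21 FPKM in si-NC, 2.58 and 2.79 in si-RAB23-1, and 4.17 and 5.17 in si-RAB23-9. The groups did not overlap, and the si-RAB23-9 libraries were the most widely spread. Depth was 109 to 234 reads per library. This was the lowest of the members above 0 except in the second si-RAB23-9 library, where CCNE2 had 219 reads and CCNE1 234. CCNE1 rose 1.45-fold with si-RAB23-9, a difference of 0.42 (SE 0.094, interval 0.19 to 0.66, limma adjusted p = 0.0406). It passed in 6 of 9 other settings (limma adjusted p up to 0.129). That call held with 1 library left out only without the first si-RAB23-9 library (0.0482), and the others gave up to 0.168 by limma. With si-RAB23-1 the difference was -0.19 (interval -0.43 to 0.038, limma adjusted p = 0.221). The gap between the siRNAs was 0.62 (interval 0.38 to 0.85, limma adjusted p = 0.0112). It held under 9 of 9 settings and was lost without the first si-RAB23-1 library (0.0568).

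CCNE2 (ENSG00000175305, chromosome 8, 94879770 to 94896678, minus strand) had 2.69 and 3.23 FPKM in si-NC, 2.54 and 2.36 in si-RAB23-1, and 2.60 and 2.81 in si-RAB23-9. The si-RAB23-1 libraries lay below the rest and those of si-RAB23-9 overlapped si-NC. The differences from si-NC were -0.20 (interval -0.42 to 0.025, limma adjusted p = 0.198) and -0.094 (interval -0.31 to 0.13, limma adjusted p = 0.548). Between the siRNAs it was 0.10 (interval -0.12 to 0.32, limma adjusted p = 0.46). Exons of opposite-strand genes such as INTS8 and NDUFAF6 leave 62.9% of CCNE2's exonic bases free, and neither neighbour was called in any comparison.

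CCNE1 made up 54.5% and 49.8% of the E-type FPKM in si-NC, 50.4% and 54.1% in si-RAB23-1, and 61.6% and 64.8% in si-RAB23-9. Only the si-RAB23-9 libraries lay outside the range of the rest. Per free exonic base the CCNE1 share was 40.7%, 40.8% and 51.9%. In si-NC CCNE1 was thus the larger part of FPKM in the first library and just the smaller part in the second. Per free base it was the smaller part.

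CDK2 (ENSG00000123374, chromosome 12, 55966769 to 55972784, plus strand), the kinase partner of the E cyclins, had 22.8 and 21.1 FPKM in si-NC, 24.0 and 21.5 in si-RAB23-1, and 25.4 and 23.7 in si-RAB23-9. The si-RAB23-1 libraries overlapped si-NC, and those of si-RAB23-9 lay above si-NC. The differences from si-NC did not pass the test, at 0.048 (interval -0.12 to 0.22, limma adjusted p = 0.687) and 0.16 (interval -0.015 to 0.33, limma adjusted p = 0.203). By voom with library totals CDK2 passed for si-RAB23-9 (limma adjusted p = 0.049). Between the siRNAs the difference was 0.11 (interval -0.063 to 0.28, limma adjusted p = 0.317). The opposite-strand pigment gene PMEL spans CDK2 and covers part of its exons (83.2% of bases stay free), and PMEL was not called.

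**Figure D3:**
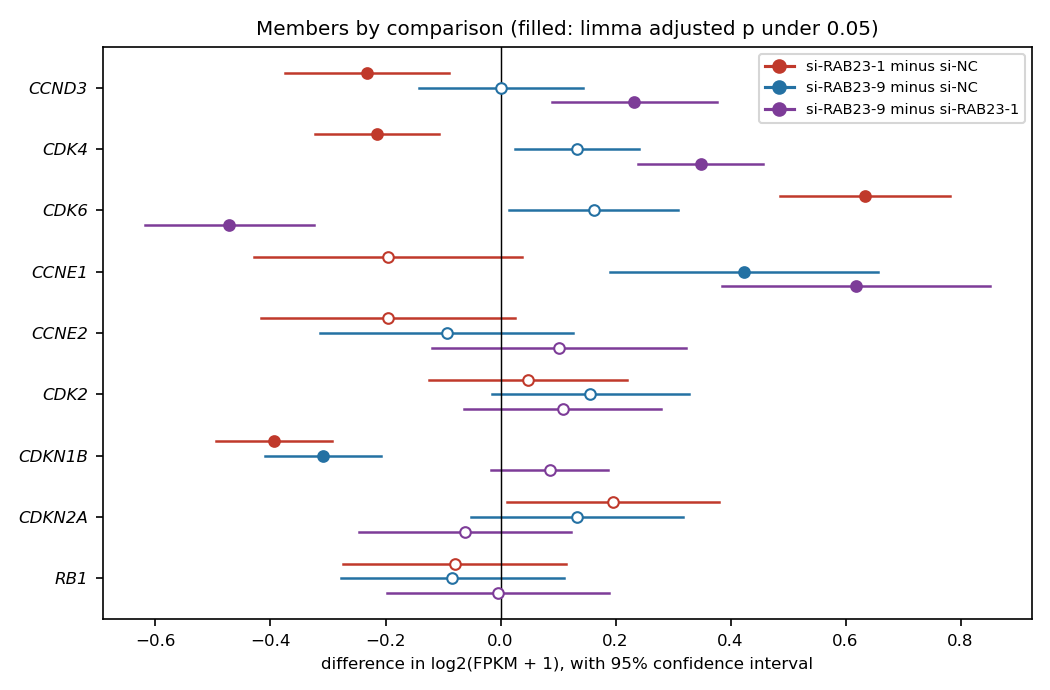
Difference in log2(FPKM + 1) for the 9 tested members in the 3 comparisons, with 95% confidence intervals from limma; filled symbols have an adjusted p under 0.05. CDKN1B lies below 0 with both siRNAs, and CDK6, CDK4, CCND3 and CCNE1 separate the siRNAs from each other.

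Among the inhibitors, CDKN1B fell with both siRNAs. CDKN1B (ENSG00000111276, chromosome 12, 12715058 to 12722371, plus strand), which encodes p27, had 23.2 and 22.7 FPKM in si-NC, 16.9 and 17.5 in si-RAB23-1, and 18.7 and 17.9 in si-RAB23-9. All 4 libraries with a RAB23 siRNA lay below both si-NC libraries, and the RAB23 siRNAs did not overlap each other. The level was 0.751 times si-NC with si-RAB23-1, a difference of -0.39 (SE 0.041, interval -0.50 to -0.29, limma adjusted p = 0.00544). With si-RAB23-9 it was 0.799 times si-NC, a difference of -0.31 (interval -0.41 to -0.21, limma adjusted p = 0.0103). Both calls held under 10 of 10 settings. The first was lost without the first si-NC library (0.0502). The second was lost when a library of si-NC or of si-RAB23-9 was left out, whichever it was (up to 0.0801). Between the siRNAs the difference of 0.085 did not pass (interval -0.016 to 0.19, limma adjusted p = 0.197). No exon of another gene covers CDKN1B.

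CDKN2A (ENSG00000147889, chromosome 9, 21967753 to 21995301, minus strand), which encodes p16 and, from another reading frame, ARF, was transcribed at 11.7 and 11.7 FPKM in si-NC, 12.8 and 14.4 in si-RAB23-1, and 12.2 and 13.7 in si-RAB23-9. The gene-level table does not separate the p16 and ARF transcripts. All libraries with a RAB23 siRNA lay above si-NC, and the si-NC libraries were nearly equal. The differences of 0.20 (interval 0.011 to 0.38, limma adjusted p = 0.14) and 0.13 (interval -0.051 to 0.32, limma adjusted p = 0.3) did not pass. In the voom fits CDKN2A passed for si-RAB23-1 (limma adjusted p = 0.041 and 0.02). Between the siRNAs the difference was -0.062 (interval -0.25 to 0.12, limma adjusted p = 0.589).

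RB1 (ENSG00000139687, chromosome 13, 48303726 to 48599436, plus strand), the substrate of these kinases, had 7.58 and 8.65 FPKM in si-NC, 8.05 and 7.19 in si-RAB23-1, and 7.75 and 7.42 in si-RAB23-9. The libraries of all 3 groups overlapped. The differences were -0.080 (interval -0.27 to 0.11, limma adjusted p = 0.536), -0.084 (interval -0.28 to 0.11, limma adjusted p = 0.54) and -0.0044 between the siRNAs (interval -0.20 to 0.19, limma adjusted p = 0.973). Against si-NC the intervals lie between -0.28 and 0.11, short of the difference of CDK6 with si-RAB23-1 on either side. RCBTB2, whose span overlaps that of RB1 on the opposite strand, was higher with si-RAB23-9 than with si-RAB23-1 by 0.34 (limma adjusted p = 0.0392). No exon of another gene covers RB1.

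**Figure D4:**
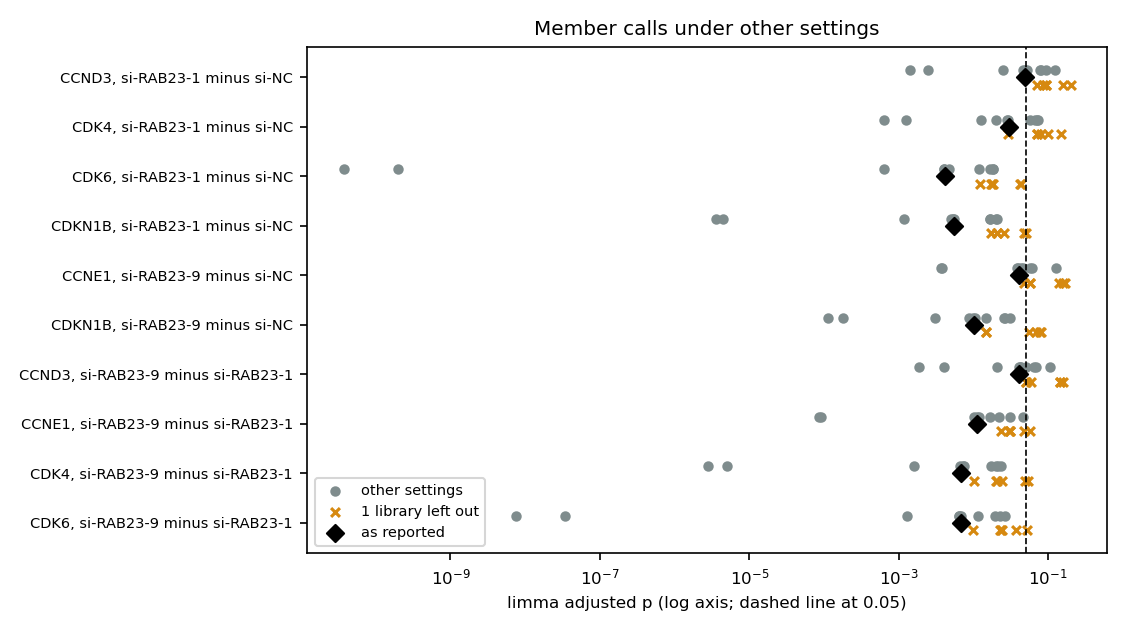
Limma adjusted p (log axis) of each member call as reported (diamonds), under the other settings (circles) and with 1 library left out (crosses), with a dashed line at 0.05. CDK6 with si-RAB23-1 stays left of the line throughout, whereas all crosses of CCND3 lie right of it.

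The other genes of the G1 network came from 6 lists of 97 genes, of which 93 were tested (CDK3, LIN37, MYCN and CCNA1 did not pass the filter). With si-RAB23-1, 9 of the 93 were higher and 22 lower, a median difference of -0.087. With si-RAB23-9, 18 were higher and 5 lower, with a median of 0.081. Between the siRNAs, 40 were higher and 6 lower with si-RAB23-9, with a median of 0.14. The shares of all genes called and their medians are those given above for the members. By voom with library totals the split over all genes with si-RAB23-1 was 1622 higher and 2178 lower, against 1167 and 1042 as reported.

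Of the 6 other CDK inhibitor genes, 1 was higher and 3 were lower with si-RAB23-1 (list median -0.28). CDKN2B, which encodes p15 and lies beside CDKN2A, had 16.9 and 15.8 FPKM in si-NC, 24.6 and 24.8 in si-RAB23-1, and 13.9 and 13.1 in si-RAB23-9. The groups did not overlap and lay on opposite sides of si-NC. CDKN2B was higher with si-RAB23-1 by 0.57 (limma adjusted p = 0.00363) and lower with si-RAB23-9, with a difference of -0.26 (limma adjusted p = 0.0265), a gap of -0.82 between the siRNAs (limma adjusted p = 0.0013). CDKN1A, which encodes p21, fell by 0.66, the phosphatase gene CDKN3 fell by 0.63 and CDKN2C, which encodes p18, fell by 0.34 with si-RAB23-1. With si-RAB23-9, CDKN2B was the 1 called gene of this list (median -0.16), and CDKN1A and CDKN3 were higher than with si-RAB23-1 by 0.44 and 0.62 (2 higher and 1 lower of 6, median 0.13). The call of CDKN2B with si-RAB23-9 against si-NC was lost when a library of si-RAB23-9 or of si-NC was left out, and the gap between the siRNAs held in all 6 such fits.

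Of 16 tested genes of the pocket protein and E2F list, 2 were higher and 3 lower with si-RAB23-1 (median -0.096). E2F8 (-0.35), the MuvB subunit gene LIN9 (-0.35) and E2F7 (-0.23) were lower, and E2F4 (0.23) and the pocket protein gene RBL2 (0.20) were higher. With si-RAB23-9, 4 were higher (median 0.10): TFDP1 (0.42), which encodes the DP1 partner of E2F, RBL2 (0.25), RBBP4 (0.22) and E2F4 (0.18). Between the siRNAs 7 of 16 were higher with si-RAB23-9 (median 0.16), among them E2F8 (0.55), TFDP1 (0.54), E2F1 (0.52) and LIN9 (0.45). The 3 lower with si-RAB23-1 became 0 or 1 with any library left out. The 4 higher with si-RAB23-9 became 1 without either si-NC library and 0 without either si-RAB23-9 library, where 6 of 16 had an unadjusted p under 0.05 by limma. The 7 became 3 and 2 without the first and the second si-RAB23-9 library.

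Of 14 tested other cyclins, kinases and activators, 1 was higher and 5 lower with si-RAB23-1 (median -0.11). Beside CCND1, MNAT1, an assembly factor of the CDK-activating kinase, was lower (-0.78), as were CDK1 (-0.29), the phosphatase gene CDC25B (-0.28) and CCNA2 (-0.16), and the chaperone gene CDC37 was higher by 0.21. With si-RAB23-9, CDC25A (0.24) and CDC37 (0.17) were higher and CCND1 lower (-0.56), with a list median of 0.056. Between the siRNAs 8 of 14 were higher with si-RAB23-9 (median 0.19), including MNAT1 (0.70), CDC25B (0.39) and CDC25A (0.38). The 5 lower with si-RAB23-1 became 2 without either si-NC library or the first si-RAB23-1 library. The calls of CDC25A and CDC37 with si-RAB23-9 were lost without a library of si-NC or of si-RAB23-9. The 8 became 3 and 4 without the first and the second si-RAB23-9 library, and 5 or 6 without any other.

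Of 18 genes that act in turnover of these proteins, 1 passed the test with each siRNA. With si-RAB23-1 the ubiquitin ligase gene CUL4A was higher by 0.33 (list median 0.047). With si-RAB23-9 SKP2, whose product targets p27 for degradation, had a difference of -0.39 (limma adjusted p = 0.0048, list median -0.022). SKP2 (-0.49) and FBXW7 (-0.31), whose product targets cyclin E, were lower with si-RAB23-9 than with si-RAB23-1 (2 of 18, median -0.045). The call of SKP2 against si-NC was lost without the second si-RAB23-9 library, and that of CUL4A without either si-NC library or the first si-RAB23-1 library. The call of FBXW7 was lost with any library left out.

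Of 17 tested upstream factors, 4 were higher and 5 lower with si-RAB23-1 (median 0.067), and 4 were higher and 1 lower with si-RAB23-9 (median 0.051). MYC was higher by 1.03 with si-RAB23-1 and by 0.51 with si-RAB23-9, and JUN by 0.53 and 0.41. STAT3 was higher by 0.31 and 0.23 and ETS2 by 0.21 and 0.40. MDM2, whose product drives p53 degradation, was lower (-0.38 and -0.32). FOXM1 (-0.31) was among those lower with si-RAB23-1, and in the direct comparison it was higher with si-RAB23-9 by 0.51, with 6 of 17 higher and 2 lower (median 0.039). With si-RAB23-1 the 4 higher became 2 and the 5 lower became 0 without the second si-NC library, where 9 of 17 had an unadjusted p under 0.05 by limma. The 5 became 2 or 3 without any other library. With si-RAB23-9 the 4 higher became 1 or 2 when a library of si-RAB23-9 or of si-NC was missing. Between the siRNAs the 6 became 1 without either si-RAB23-9 library and 3 or 4 without any other.

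Of the S phase genes under E2F control, most were higher with si-RAB23-9 than with si-RAB23-1. With si-RAB23-1, 6 of 22 were lower (median -0.14), led by TK1 (-0.34), MCM4 (-0.29) and MCM2 (-0.25). With si-RAB23-9, 8 were higher and 1 lower (median 0.15). MYBL2 (0.46), GINS2 (0.40) and MCM3 (0.26) were higher, and RRM2, a subunit gene of ribonucleotide reductase, was lower (-0.62). In the direct comparison 17 of 22 were higher with si-RAB23-9 and 1, RRM2 (-0.58), was lower, with a list median of 0.31. With 1 library left out, the 6 lower with si-RAB23-1 became 0 to 5, the lowest without the second si-NC library, where 6 of 22 had an unadjusted p under 0.05 by limma. The 8 higher with si-RAB23-9 became 1 or 2 when a library of si-RAB23-9 or of si-NC was left out. The count of 17 became 8 without either si-RAB23-9 library, and 13 to 18 under the other settings, with medians of 0.31 to 0.35.

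**Figure D5:**
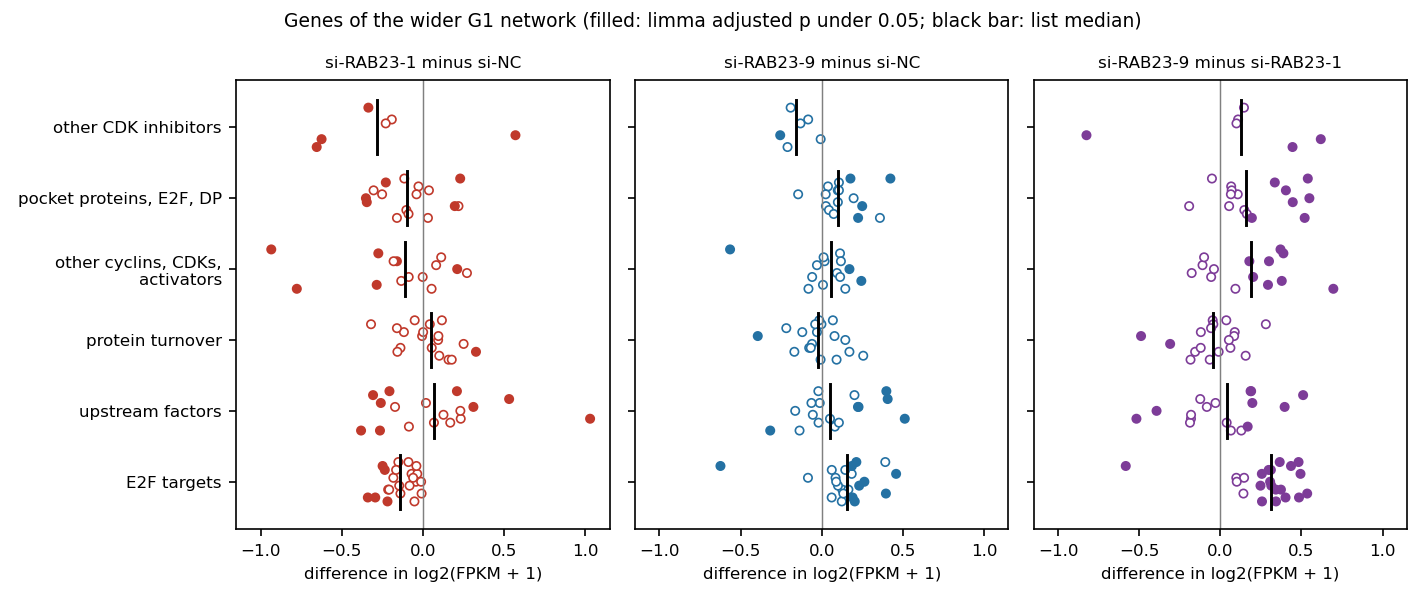
Difference in log2(FPKM + 1) of each tested gene of the 6 network lists in the 3 comparisons (filled: limma adjusted p under 0.05; black bars: list medians). The E2F targets lie mostly left of 0 with si-RAB23-1 (median -0.14) and right of 0 with si-RAB23-9 (median 0.15).

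Most of these calls were not stable to the choice of libraries. With each library left out in turn, 7 of the 31 network calls for si-RAB23-1 held in every fit (CCND1, CDKN1A, CDKN2B, CDKN3, JUN, MNAT1 and MYC). For si-RAB23-9 it was 3 of 23 (CCND1, ETS2 and MYBL2), and between the siRNAs 16 of 46, among them CDKN2B, CDKN3, E2F8, TFDP1, SKP2, FOXM1 and MCM2.

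For each of the 5 members called in a comparison, the protein-coding genes with the closest profile over the 6 libraries were found among 6983 genes with a mean of at least 5 FPKM, by the root-mean-square difference of centred log2(FPKM + 1). They were CDK2AP2 (0.019) and HPCAL1 (0.021) for CCND3, TBC1D17 (0.018) and KANK2 (0.025) for CDK4, and ODC1 (0.043) and ERLIN2 (0.045) for CDK6. For CCNE1 they were E2F1 (0.049) and ST6GALNAC4 (0.065). For CDKN1B they were MDM2 (0.023) and C12orf57 (0.026). With 6 libraries in 3 groups, many genes can lie as close. ODC1, which encodes ornithine decarboxylase, had 45.3 and 46.9 FPKM in si-NC, 75.6 and 72.0 in si-RAB23-1, and 50.5 and 50.6 in si-RAB23-9, the same order of groups as CDK6. E2F1 had 14.5 and 15.3 FPKM in si-NC, 12.6 and 13.9 in si-RAB23-1, and 17.6 and 21.4 in si-RAB23-9, and like CCNE1 was most spread in si-RAB23-9.

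Promoter windows from 250 bases before to 50 after the start were searched for the E2F-type words TTTGGCGC and TTTCCCGC on both strands (RefSeq, GRCh38.p14). A window matched 7 of the 10 members by symbol (not CCND2, CDK2 or CCNE2), and 4 of the 7 windows (CCND3, CDK4, CDKN1B and RB1) lie wholly inside the gene's span in the table, downstream of its outermost start. None of the 7 windows holds either word, and 2.27% of all 35116 promoters do. This says only that these letters are not in these windows.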

How the data were processed

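Values were FPKM (fragments relative to a gene's length and a library's size) in the table the authors deposited, 1 column per library. The build hg19 and the tools STAR 2.5.1b, RSEM 1.2.29, Trimmomatic 0.36, FastQC and edgeR 3.8.5 are named, without roles, per the submitters' processing notes, yet all 58735 gene coordinates equal GENCODE 29 on GRCh38, the build used here. FPKM times gene length gave whole reads for 100% of values (within 0.01 of a read). Differences in log2(FPKM + 1) were tested in limma 3.58.1 (R 4.3.3): 1 mean per group over 6 libraries, eBayes with trend, two-sided, Benjamini-Hochberg over 14352 genes. The script was tested on simulated data. Replicates differed beyond sampling noise (chi-square per degree of freedom 1.67 to 3.04). Named were all members, RAB23, CCND1, some of the overlapping genes and 2 nearest profiles per called member. Up to 6 called genes per network list were named by size, with others added after their values were seen. Members and lists were chosen with earlier results of these data known. Alternatives were other scalings, filters, pseudocount (0.1), voom on recovered reads, no trend, a replicate block, fits of 2 groups, and left-out libraries. Reads per free exonic base were added after seeing the data. Protein sequences were not used here. Whether counting used strand is not given in the sources used here, so values of genes with antisense partners are uncertain.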

Additional observations from a re-analysis of the deposited data

Results flagged for a closer look

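The siRNAs differed from each other in 4 members by the direct limma test of si-RAB23-9 against si-RAB23-1. The differences in log2(FPKM + 1) were 0.233 for CCND3, 0.348 for CDK4, -0.472 for CDK6 and 0.618 for CCNE1. For CCNE1 and CDK4 the si-NC libraries lay between those of the RAB23 siRNAs. For CDK6 both RAB23 siRNAs lay above si-NC, and for CCND3 si-RAB23-9 overlapped si-NC.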

How the results depend on the processing

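With 2 libraries per group, calls near the threshold moved with the settings, and no direction of a called member turned in any setting run. The 4 members called for si-RAB23-1 became 2 with no filter, without trend, with the replicate block or with only the 2 groups in the fit, and 1 to 3 with a library left out. Each of the libraries other than the second of si-RAB23-1 took that count below 3. The 2 called for si-RAB23-9 became 1 with no filter, with mean FPKM of at least 5 (CCNE1 is then not tested), without trend or with only the 2 groups, 4 by voom with library totals, and 0 to 1 with a library left out. It was 0 without either si-NC library or the second si-RAB23-9 library, where 2 to 3 members had an unadjusted p under 0.05 by limma. The 4 called between the siRNAs became 1 to 3 with a library left out, the lowest without the second si-RAB23-9 library. Network calls for si-RAB23-1 (31) became 20 with no filter, 51 and 48 by voom, and 7 to 27 with a library left out, the lowest without the second si-NC library. Those for si-RAB23-9 (23) became 14 with no filter, 12 without trend, and 4 to 23 with a library left out, the lowest without the second si-RAB23-9 library. Those between the siRNAs (46) became 30 with no filter and 18 to 41 with a library left out, the lowest without the second si-RAB23-9 library. Leaving out a library also leaves fewer samples, and no filter adds genes to the adjustment. Other causes were not tested. For si-NC, then si-RAB23-1, then si-RAB23-9, shares by recovered reads not divided by length were 90.5%, 85.5% and 86.5% for CCND1 of the D-type cyclins, 38.8%, 38.8% and 49.9% for CCNE1 of the E-type, and 54.5%, 69.1% and 55.2% for CDK6 of CDK4 plus CDK6. Per free exonic base they were 92.7%, 88.8% and 89.5%, then 40.7%, 40.8% and 51.9%, then 15.0%, 24.8% and 15.4%. On FPKM, with a library left out, the shares were 91.6% to 92.3%, 87.3% to 88.0% and 88.4% to 88.7% for CCND1, 49.8% to 54.5%, 50.4% to 54.1% and 61.6% to 64.8% for CCNE1, and 23.2% to 24.0%, 34.7% to 38.6% and 23.5% to 24.7% for CDK6. The replicate numbers did not pair the samples (correlations of deviations -0.056, -0.016 and 0.061, 2 numbers only). Apart from the counts and the lost calls of CDK4 and CCND3 above, the block changed no member call. The 10 member calls were kept in 82 of 98 fits under other settings, and less often with a library left out. In 5 fits under other settings, all by voom, a difference not called as reported passed. These were of CDKN2A with si-RAB23-1 and of CDK6 and CDK2 with si-RAB23-9. Depth limits CCNE1 and CCNE2 most, with 109 to 282 reads per library.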
